A study of Mus musculus with 24 samples.

Results

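The glucocorticoid response of hippocampal nuclei was followed through 9 genes of 55254 listed in the count tables. The genes were taken by symbol: the hormone receptors Nr3c1 and Nr3c2, the hormone-inducible genes Fkbp5, Sgk1, Tsc22d3 and Errfi1, the metallothioneins Mt1 and Mt2, and the lipid droplet gene Plin4. All 9 were listed in both count tables and passed the low-count filter in both cell types, so each was followed in all 24 libraries. No expression value was used to pick them here, but they were proposed with earlier results of these data known.

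The study sequenced nuclear RNA from the hippocampus of male C57BL/6N mice that were 6 months old and, per the study, housed under standard laboratory conditions. There were 4 genotypes: wild type (WT), the single knockouts Mutyh-/- and Ogg1-/-, and their cross, the double knockout (DKO). Ogg1 and Mutyh are DNA glycosylases that start base excision repair of oxidised guanine and of the adenine mispaired with it. Nuclei were sorted by the neuronal nuclear protein NeuN into NeuN+ and NeuN- fractions, with 3 libraries for each of the 8 groups.

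The knockouts were described by the study as glycosylase-deficient mouse strains, not restricted to a cell type, and no protein value was analysed here. No hormone, stressor or other agent is named for the sequenced groups, and the labels do not give the time of day at which animals died. The study also ran behavioural tests, some with foot shocks, and whether sequenced animals took part is not stated. For RNA, nuclei of 3 animals of a genotype were combined, while the sorting protocol names pools of another size, and the study's general statement is that data represent independent biological replicates. Which libraries came from separate pools is not given, so p-values measure the spread between these libraries, which may be technical. Per the labels, NeuN+ and NeuN- libraries ran on different lanes, and the effect of the lane and that of the cell type cannot be told apart.

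Each library held 56563586 to 96192142 counted reads. In WT, 8 of 8 neuronal marker genes were higher in NeuN+ nuclei, and 6 of 6 astrocyte, 5 of 5 oligodendrocyte, 3 of 3 oligodendrocyte precursor, 5 of 5 microglial and 3 of 3 endothelial markers were higher in NeuN- nuclei. Most pericyte, fibroblast and choroid plexus markers were also higher in NeuN-. The exceptions were Dcn, higher in NeuN+ (log2 difference of 2.05), and Kl, whose estimate above 0 (1.02) did not pass the test. Mutyh RNA was higher than in WT in the libraries labelled Mutyh-/- (log2 difference of 3.15 in NeuN+ and 1.85 in NeuN-) and DKO (2.99 and 1.61), which goes against a loss of the transcript. Ogg1 RNA in the libraries labelled Ogg1-/- differed from WT by 0.05 and 0.02 on the log2 scale. A gene-level count does not show whether the transcript is functional, and Ogg1 exons overlap those of Camk1 on the other strand, so genotypes below are those of the labels.

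Corticosterone, the main glucocorticoid of mice, enters the cell and binds 2 related receptors. The mineralocorticoid receptor, encoded by Nr3c2, has the higher affinity and is abundant in hippocampal neurons, while the glucocorticoid receptor, encoded by Nr3c1, has a lower affinity and is found in most cell types. Bound receptor leaves a chaperone complex built on Hsp90, moves to the nucleus and binds glucocorticoid response elements, inverted repeats of a short core sequence. Fkbp5, a co-chaperone that lowers the receptor's hormone binding, and Tsc22d3, which encodes the anti-inflammatory protein GILZ, are classic targets that limit the response. Sgk1 encodes a kinase of ion transport and cell survival, Errfi1 a feedback inhibitor of the epidermal growth factor receptor, Mt1 and Mt2 zinc-binding proteins that respond to metals and glucocorticoids, and Plin4 a coat protein of lipid droplets.

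One regulatory sequence is shown because Sgk1 is the gene to which the other inducible genes were compared below. Sgk1 has several RefSeq starts, and the sequence shown is the only one before them that held the full response element. The window is the 250 bases before a RefSeq start of Sgk1 (GRCm38.p6, chr10:21993640-21993889, plus strand, 5′ to 3′), which lies within introns of longer Sgk1 transcripts. Capitals mark the response element letters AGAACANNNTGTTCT and a further copy of the core TGTTCT upstream of it.

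Sgk1: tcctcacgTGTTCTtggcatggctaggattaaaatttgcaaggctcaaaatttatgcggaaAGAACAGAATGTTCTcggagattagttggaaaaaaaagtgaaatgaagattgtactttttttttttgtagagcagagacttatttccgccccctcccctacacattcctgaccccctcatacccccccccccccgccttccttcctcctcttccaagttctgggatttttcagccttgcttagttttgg

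The full 15-letter inverted repeat stood 189 to 175 bases before the start, and the further core 242 to 237 bases before it. Both strands were searched, and the 15 letters contain the 6-letter core on each strand. Of 32851 windows of this length before RefSeq starts of 27025 genes, 3 (0.00913%) held the 15 letters, and the Sgk1 window shown was 1 of them. Of the other Sgk1 windows, those starting at chr10:21881934 and chr10:21991973 held the 6-letter core alone. Those starting at chr10:21978422, chr10:21985854 and chr10:21994416 held neither. The core TGTTCT alone was in 5284 windows (16.1%) and in 4 of the 16 windows of the members, which belonged to Sgk1 and Tsc22d3. The metal response core TGCGCNC was in 12.5% of all windows and, among the members, before Nr3c2 and Mt2, and TGCACNC was in 10.4% and before Mt1 and Mt2. RefSeq windows were matched for 8 of the 9 members. A match of letters is a description and not evidence of binding in these nuclei.

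The receptors were compared first between WT cell types. On a common scale over the 24 libraries (CPM, counts scaled to a library of 1000000 reads), Nr3c2 stood at 1111, 894 and 994 CPM in the WT NeuN+ libraries and at 247, 260.0 and 266 CPM in WT NeuN-. Nr3c1 stood at 83.1, 77.3 and 80.5 CPM in WT NeuN+ and at 152, 154 and 158 CPM in WT NeuN-. The receptors thus had opposite patterns, with no overlap between the cell types for either gene. Nr3c2 was 3.88-fold higher in NeuN+ nuclei (log2 difference 1.96 ± 0.07 SE, adjusted p = 4.02e-17, edgeR quasi-likelihood test with Benjamini-Hochberg adjustment over all genes). Nr3c1 was lower in NeuN+ nuclei by a log2 difference of -0.95 ± 0.06 (adjusted p = 4.14e-12), which passed the p threshold but not the limit of 1 on the log2 difference that was set for calls between cell types.

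Among the other members, the metallothioneins, Tsc22d3 and Plin4 were higher in NeuN- nuclei. Tsc22d3 had 2.92, 2.74 and 2.51 CPM in WT NeuN+ and 65.1, 66.5 and 87.8 CPM in WT NeuN-, a 26.9-fold difference (log2 -4.75 ± 0.22, adjusted p = 8.48e-15). This was the largest difference between the cell types among the 9 genes. Mt1 had 3.10, 3.32 and 2.81 CPM in WT NeuN+ and 18.2, 18.4 and 18.4 CPM in WT NeuN- (5.95-fold, log2 -2.57 ± 0.16, adjusted p = 8.10e-13). Mt2 differed 6.73-fold in the same direction (log2 -2.75 ± 0.24, adjusted p = 7.44e-10), from 0.712 ± 0.147 CPM (SD, n = 3) in NeuN+ to 4.81 ± 0.63 CPM in NeuN-. Plin4 was 3.14-fold higher in NeuN- (log2 -1.65 ± 0.31, adjusted p = 4.88e-05), although 1 of its 3 WT NeuN- libraries, at 47.2 CPM, was far above the others at 21.5 and 23.0 CPM.

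Fkbp5 had the opposite direction, at 57.0, 53.5 and 64.8 CPM in WT NeuN+ and 30.6, 30.8 and 41.6 CPM in WT NeuN-. Its log2 difference of 0.77 ± 0.22 had an adjusted p of 0.00304 but was under the limit of 1. Errfi1 was lower in NeuN+ by a log2 difference of -0.58 ± 0.08 (adjusted p = 1.38e-06), also under that limit. Sgk1 did not pass the test (0.43 ± 0.25, adjusted p = 0.129), with 91.6, 86.9 and 84.1 CPM in NeuN+ and 51.2, 59.7 and 84.1 CPM in NeuN-. The NeuN- libraries of Sgk1 spread far more than the NeuN+ libraries.

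Of the 9 members, 5 were called between the WT cell types, against 42.9% of all 33523 genes tested. The 1 called higher in NeuN+ (Nr3c2) stands against 21.3% of all genes, and the 4 called higher in NeuN- (Tsc22d3, Mt1, Mt2 and Plin4) against 21.6%. By adjusted p alone 8 of 9 passed, against 72.4% of all genes, and the libraries did not overlap between the cell types for 9 of 9, against 76.1%. Most genes differed between these nuclei, and these shares do not set the members apart.

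**Figure D1:**
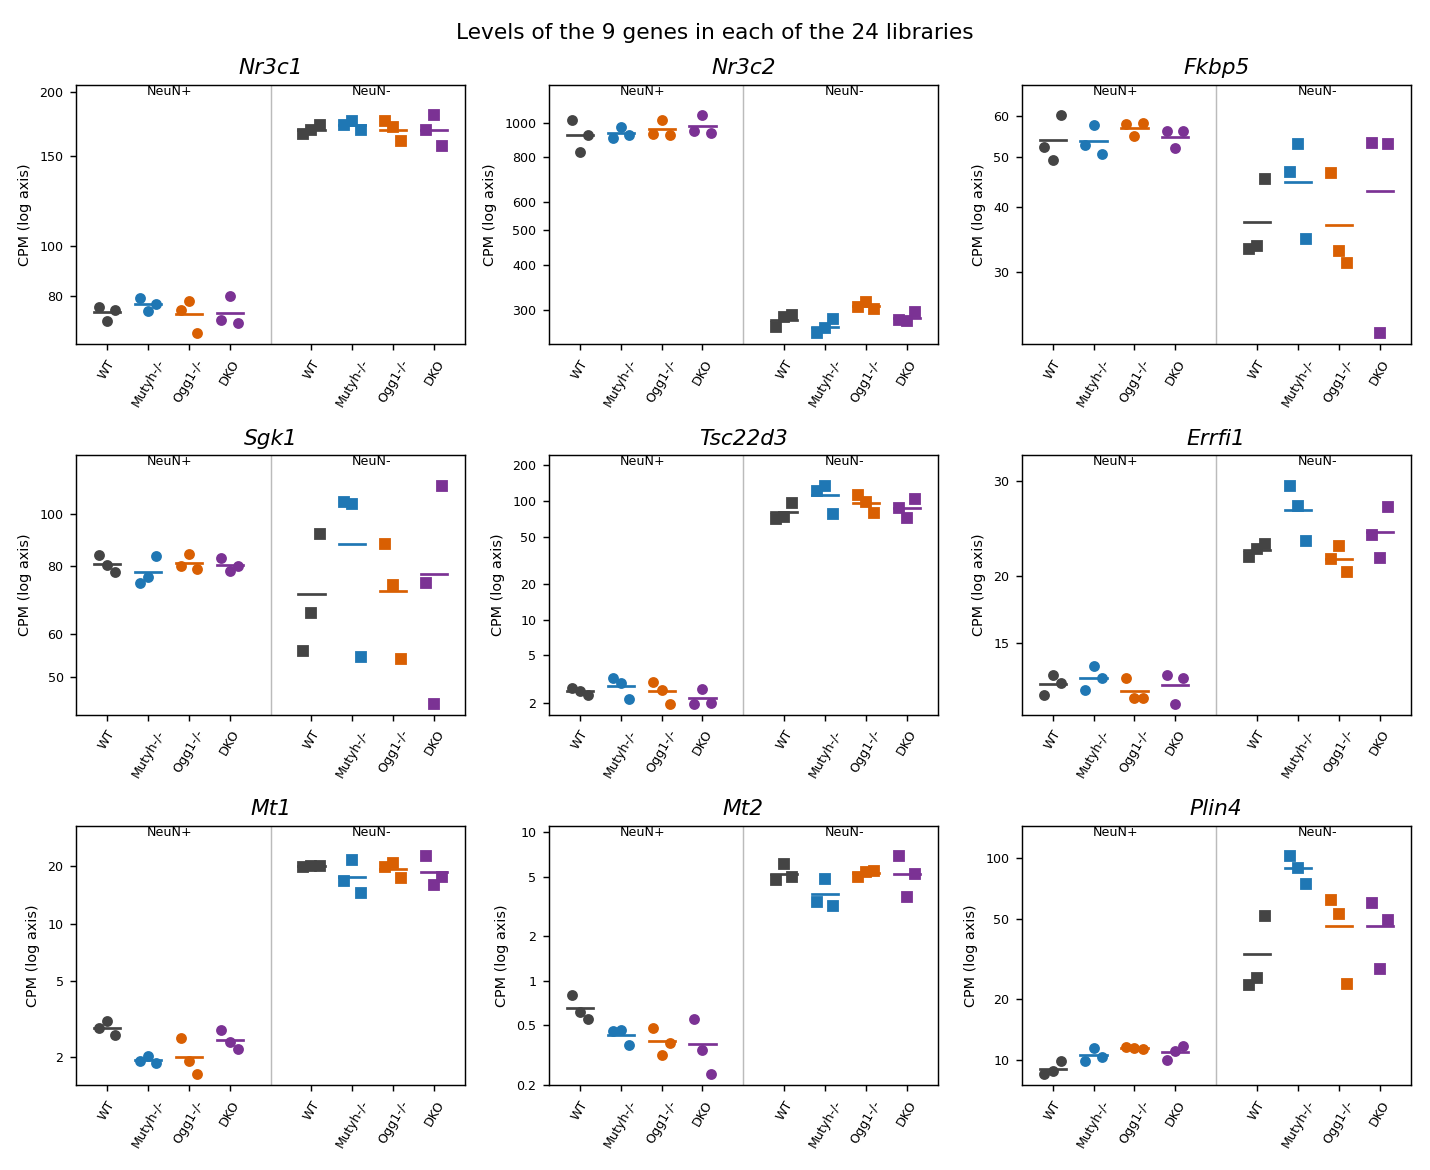
Level of each member in every library, in CPM within its cell type on a log axis, with 1 point per library, 3 libraries per genotype, NeuN+ and NeuN- side by side and lines at the group means. Nr3c2 is the most abundant gene in NeuN+ nuclei, Tsc22d3 is near 2.55 CPM in NeuN+ and near 91.0 CPM in NeuN-, and the NeuN- points of Fkbp5, Sgk1 and Plin4 spread widely within each genotype.

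Levels of different genes were compared per kilobase of annotated exon (FPKM). In WT NeuN+ nuclei the order was Nr3c2 at 154 ± 17 FPKM (SD, n = 3), Sgk1 at 17.9 ± 0.8, Nr3c1 at 10.5 ± 0.4, Fkbp5 at 6.17 ± 0.61, Errfi1 at 3.81 ± 0.14, Mt1 at 2.47 ± 0.21, Plin4 at 1.69 ± 0.12, Mt2 at 1.21 ± 0.25 and Tsc22d3 at 0.627 ± 0.047. Each step in that order was larger than the SD of either neighbour. In WT NeuN- nuclei Nr3c2 stood at 39.8 ± 1.5 FPKM, Nr3c1 at 20.1 ± 0.4, Tsc22d3 at 16.9 ± 2.9, Mt1 at 14.7 ± 0.1, Sgk1 at 13.3 ± 3.5, Mt2 at 8.18 ± 1.07, Errfi1 at 5.70 ± 0.16, Plin4 at 5.30 ± 2.49 and Fkbp5 at 3.62 ± 0.67. There the steps from Tsc22d3 to Mt1, from Mt1 to Sgk1, from Errfi1 to Plin4 and from Plin4 to Fkbp5 were smaller than the larger SD of the pair. Nuclear RNA also holds introns, and what features the reads were counted over is not given in the sources used here, so levels per exon length are approximate.

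Plin4 (chr17:56100591-56109803, minus strand, GRCm38) shares exon sequence with Hdgfl2 on the other strand. Mt2 (chr8:94172664-94173568, plus strand) shares it with the antisense transcript Gm45774, and Nr3c2 (chr8:76899442-77245012, plus strand) with the noncoding Gm10649. Whether the counting used the strand is not given, so reads of these genes and their partners cannot be told apart. Mt1 (chr8:94179082-94180327) starts 5514 bases after the end of Mt2. Of the remaining genes, Fkbp5 lies at chr17:28399094-28517527, Sgk1 at chr10:21882184-21999903, Tsc22d3 at chrX:140539528-140600659 and Errfi1 at chr4:150853919-150868892, on the chromosome of Mutyh but 34 Mb from it.

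Genotypes were then compared with WT within each cell type, on a CPM scale computed over the 12 libraries of that cell type. Calls needed an adjusted p below 0.05 with a log2 difference beyond 0.5 in either direction. In NeuN+ nuclei 0 of 9 members were called in Mutyh-/- (0.428% of all 30132 genes tested), 0 of 9 in Ogg1-/- (0.574%) and 0 of 9 in DKO (0.302%). In NeuN- nuclei 0 of 9 were called in Mutyh-/- (0.273% of 31863 genes), 0 of 9 in Ogg1-/- (0.229%) and 0 of 9 in DKO (0.116%). These are counts of edgeR's quasi-likelihood test. At such backgrounds the expected number among 9 genes is below 1, so a count of 0 says little about the group.

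At an unadjusted p under 0.05 there were 3, 3 and 2 members in NeuN+ (Mutyh-/-, Ogg1-/- and DKO), where 18.7%, 12.3% and 13.5% of all genes were. In NeuN- there were 4, 1 and 0, where 13.7%, 11.8% and 12.4% of all genes were. DESeq2 called 1 member in Mutyh-/- NeuN+ (Mt1), 1 in Ogg1-/- NeuN+ (Mt1) and 1 in Mutyh-/- NeuN- (Plin4), and edgeR's likelihood ratio test called the same gene in each of these comparisons. Neither called a member in the other comparisons with WT. In NeuN+ the 3 libraries of each group did not overlap for 2 members in Mutyh-/- (21.1% of all genes), 3 in Ogg1-/- (19.3%) and 2 in DKO (16.8%). In NeuN- this held for 2 members in Mutyh-/- (19.2%), 1 in Ogg1-/- (19.8%) and 0 in DKO (17%). These 6 comparisons share the WT libraries of their cell type, so the genotype effects are not independent of each other.

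**Figure D2:**
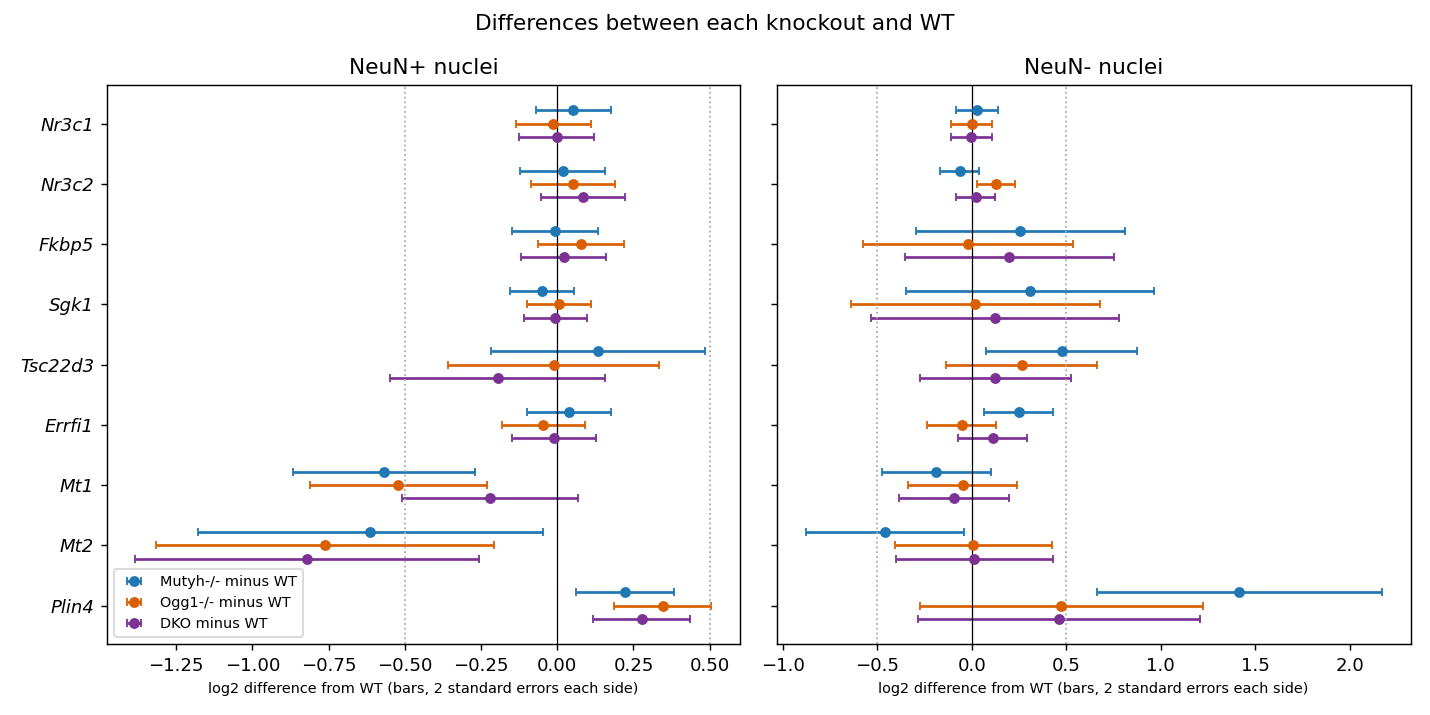
Log2 difference from WT of each member in Mutyh-/-, Ogg1-/- and DKO, with NeuN+ and NeuN- in separate panels; points are edgeR estimates from 3 libraries per group and bars are 2 standard errors on each side, with dotted lines at the limit of 0.5 either way. The bars of Fkbp5, Sgk1 and Plin4 are long in NeuN- and short in NeuN+, Mt1 and Mt2 lie below 0 in NeuN+ for each knockout, and the highest point is Plin4 in Mutyh-/- NeuN- at 1.42.

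The receptor genes hardly moved with genotype. Nr3c1 had 165.7, 168.9 and 172.5 CPM in WT NeuN- libraries, 172.5, 175.4 and 169.1 in Mutyh-/-, 175.4, 170.9 and 160.5 in Ogg1-/- and 169.0, 180.5 and 157.0 in DKO. In NeuN+ nuclei its lowest, median and highest libraries of 12 were at 67.5, 74.9 and 79.7 CPM. Each knockout group overlapped with WT in both cell types, and the 6 log2 differences of Nr3c1 lay between -0.01 and 0.05 with standard errors of 0.05 to 0.06. An interval of 2 standard errors around the Mutyh-/- NeuN- difference ran from -0.08 to 0.14.

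Nr3c2 in NeuN+ nuclei had 1017, 827 and 923 CPM in WT, 906, 972 and 922 in Mutyh-/-, 929, 1019 and 920.4 in Ogg1-/- and 949, 1049 and 935 in DKO. These groups overlapped, and no log2 difference from WT exceeded 0.08. In NeuN- nuclei the Ogg1-/- libraries, at 305, 316 and 301 CPM, all lay above the WT libraries at 269, 285 and 290 CPM. That difference of 0.13 ± 0.05 on the log2 scale did not pass the test (adjusted p = 0.340).

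Fkbp5, Sgk1, Tsc22d3 and Errfi1 were called in no genotype, and in NeuN- nuclei the libraries of Fkbp5, Sgk1 and Tsc22d3 spread widely within genotypes, those of Errfi1 less so. Sgk1 had 55.7, 65.6 and 91.7 CPM in WT NeuN-, 105, 104 and 54.3 in Mutyh-/-, 88.1, 73.9 and 53.8 in Ogg1-/- and 74.5, 44.5 and 113 in DKO. In NeuN+ nuclei the same gene had 83.9, 80.3 and 78.2 CPM in WT, 74.4, 76.4 and 83.4 in Mutyh-/-, 80.1, 84.2 and 79.1 in Ogg1-/- and 82.8, 78.6 and 80.0 in DKO. The highest NeuN- library was 2.54-fold above the lowest, whereas in NeuN+ the range was 1.13-fold. The groups overlapped in both cell types, and the Mutyh-/- difference in NeuN- was 0.31 ± 0.33 on the log2 scale (adjusted p = 0.728).

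Fkbp5 in NeuN- had 33.3, 33.8 and 45.4 CPM in WT, 46.7, 52.9 and 34.8 in Mutyh-/-, 46.7, 32.96 and 31.2 in Ogg1-/- and 53.1, 22.9 and 52.9 in DKO. In NeuN+ it ranged from 49.5 to 60.2 CPM over 12 libraries. The DKO NeuN- group alone held both the lowest and the highest library of this cell type. Tsc22d3 in NeuN- had 70.9, 73.1 and 95.8 CPM in WT, 121, 134 and 77.8 in Mutyh-/-, 112, 96.9 and 79.0 in Ogg1-/- and 86.3, 72.3 and 103 in DKO. The Mutyh-/- group was higher in 2 of 3 libraries and overlapped WT with the third library (log2 0.48 ± 0.20, adjusted p = 0.323).

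Errfi1 in NeuN- had 21.7, 22.4 and 22.9 CPM in WT and 29.4, 26.9 and 23.2 in Mutyh-/-, with no overlap. Its log2 difference of 0.25 ± 0.09 did not pass the test (adjusted p = 0.273). The Ogg1-/- libraries, at 21.5, 22.7 and 20.3 CPM, and the DKO libraries, at 23.8, 21.6 and 26.9 CPM, overlapped WT. In NeuN+ nuclei Errfi1 ranged from 11.6 to 13.6 CPM and Tsc22d3 from 1.96 to 3.23 CPM, again with overlapping groups in all 3 genotypes.

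The spread within groups was measured as the pooled SD of log2 CPM over the 4 genotypes of a cell type, and set beside genes of like level (within 2-fold of the mean CPM). In NeuN- nuclei it was 0.58 for Plin4, 0.50 for Sgk1, 0.43 for Fkbp5 and 0.30 for Tsc22d3, where the median gene of like level had 0.07 to 0.08. The share of like-level genes with a smaller SD was 99.6% for Plin4, 99.4% for Sgk1, 99.1% for Fkbp5 and 97.9% for Tsc22d3. Mt1 (SD 0.21, 92.8% smaller) and Mt2 (0.30, 91.7% smaller) also spread more than most genes of like level, and Errfi1 had an SD of 0.13 (77.7% smaller). The receptors had SDs of 0.06 (Nr3c1, 37.9% smaller) and 0.05 (Nr3c2, 20% smaller). In NeuN+ nuclei the same shares were 64.1% for Nr3c1, 81% for Nr3c2, 41.3% for Sgk1, 75.9% for Fkbp5, 87.6% for Tsc22d3, 30.3% for Errfi1, 65.2% for Mt1, 68.5% for Mt2 and 47.2% for Plin4, so there the receptors were above most genes of like level. These are descriptions, and no test of the spread was made.

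**Figure D3:**
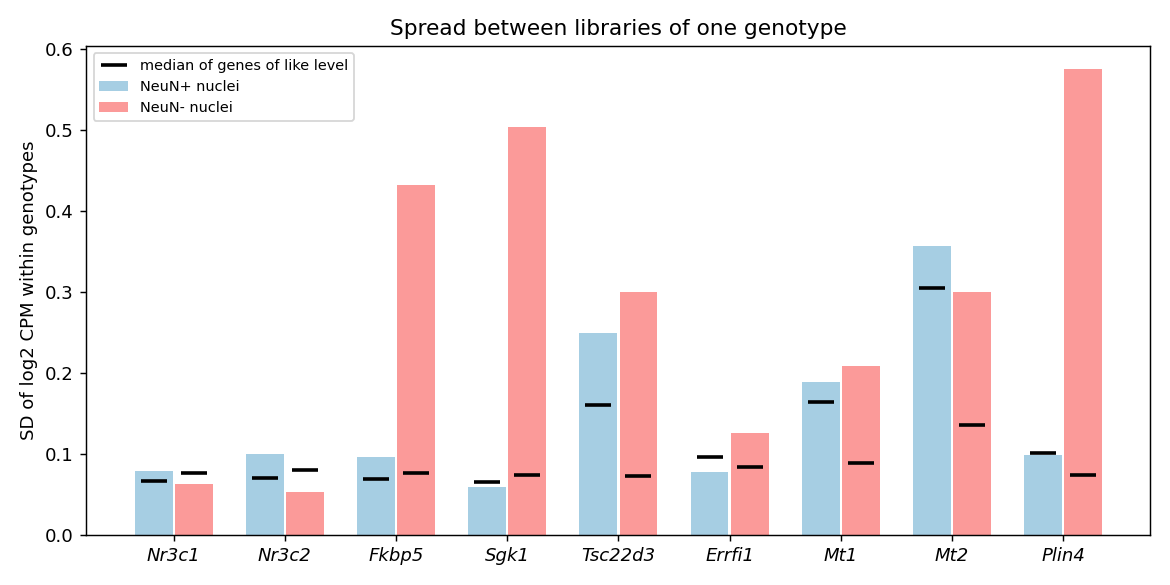
Pooled within-group SD of log2 CPM of each member in NeuN+ and NeuN- nuclei (12 libraries each), as bars, with black marks at the median SD of genes of like level. Plin4, Sgk1 and Fkbp5 have SDs of 0.58, 0.50 and 0.43 in NeuN-, far above their like-level medians, and SDs of 0.10 or below in NeuN+.

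The same NeuN- libraries were low for several genes. Over Fkbp5, Sgk1, Tsc22d3, Errfi1 and Plin4, 5 genes set together after their values were seen, the lowest library of a genotype was the same for 5 of 5 genes in each of the 4 genotypes: replicate 1 in WT, replicate 3 in Mutyh-/- and in Ogg1-/-, and replicate 2 in DKO. Mt1, outside the set, had the same lowest library in all 4 genotypes too, as did 585 of 21208 genes with a mean of at least 1 CPM (2.76%, the 6 members included), so the order was not particular to these genes. The highest library was shared by 5 of 5 in WT (replicate 3), 3 of 5 in Mutyh-/- (replicate 1), 4 of 5 in Ogg1-/- (replicate 1) and 3 of 5 in DKO (replicate 3). In NeuN+ nuclei a library was lowest for at most 2 of 5 genes in WT, 3 of 5 in Mutyh-/- and in DKO, and 4 of 5 in Ogg1-/-.

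**Figure D4:**
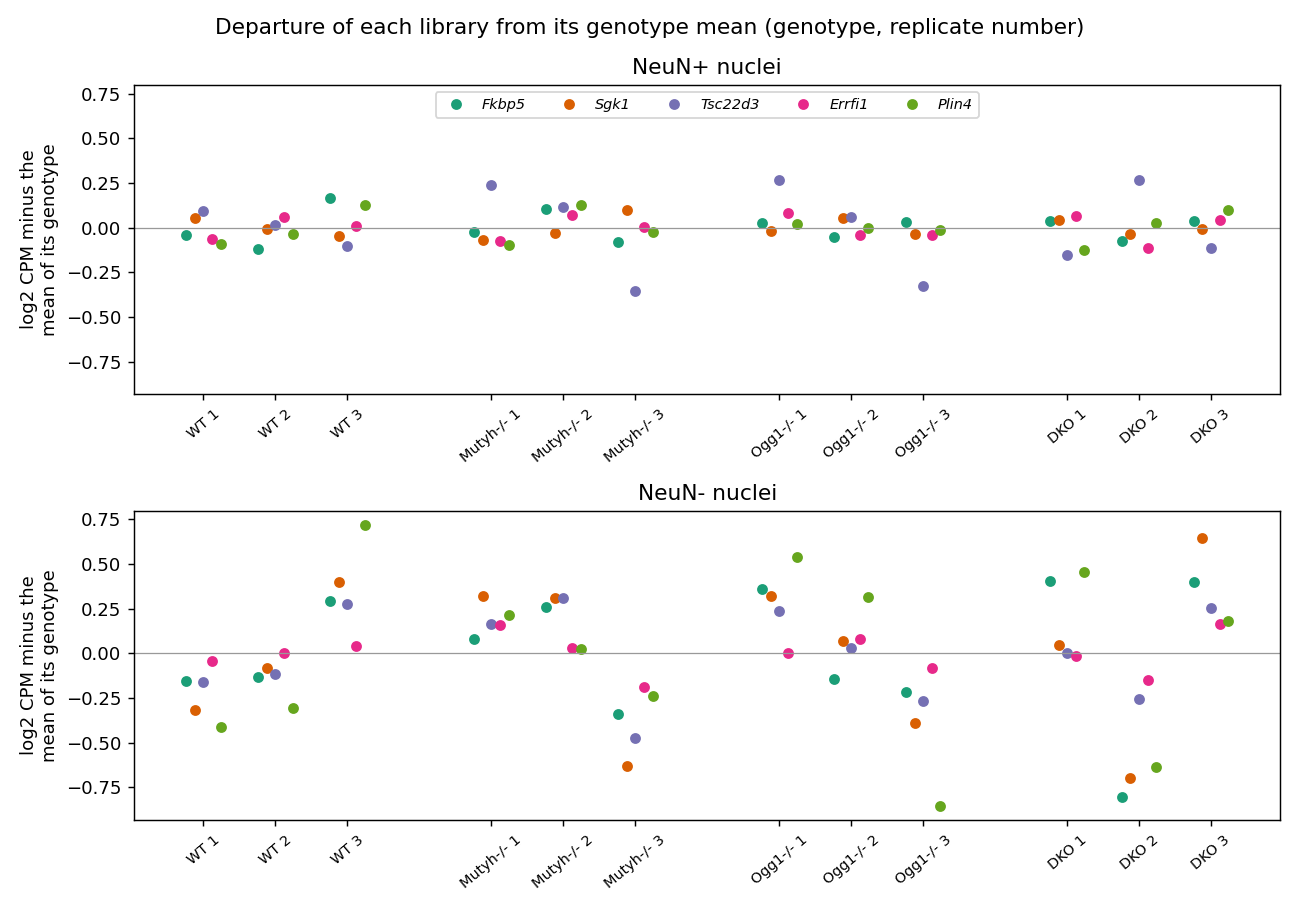
Log2 departure of each library from the mean of its own genotype for Fkbp5, Sgk1, Tsc22d3, Errfi1 and Plin4, with NeuN+ above, NeuN- below and 1 point per library and gene. In NeuN- each of the 5 genes is at its lowest within a genotype in WT replicate 1, Mutyh-/- replicate 3, Ogg1-/- replicate 3 and DKO replicate 2.

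Across the 12 NeuN- libraries the log2 CPM of Sgk1 went with that of Tsc22d3 (Pearson r = 0.879, Spearman rho = 0.825), of Fkbp5 (r = 0.883, rho = 0.818), of Errfi1 (r = 0.759, rho = 0.720) and of Plin4 (r = 0.674, rho = 0.531). Without the 2 libraries in which Sgk1 was farthest from its median the values of r were 0.911, 0.809, 0.720 and 0.708. After the genotype means were removed they were 0.945, 0.879, 0.896 and 0.767. Neither receptor went with Sgk1 (r = -0.092 for Nr3c1 and -0.0888 for Nr3c2), though r for Nr3c1 became 0.833 without the 2 farthest libraries and so rests on them. In NeuN+ nuclei, where Sgk1 ranged only 1.13-fold, r between Fkbp5 and Sgk1 was -0.255. These correlations are given as descriptions over 12 libraries, whose values share the library, its depth and its scaling.

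Other genes known to be induced by glucocorticoids were then set beside Sgk1, from a list of 28 of which 25 had at least 1 CPM in NeuN- and 22 in NeuN+. With genotype means removed, r with Sgk1 exceeded 0.7 for 17 of 25 in NeuN- (median r 0.786), where 5.98% of 21207 genes did (median 0.0179). In NeuN+ it exceeded 0.7 for 0 of 22 (median -0.412), where 5.53% of 20013 genes did (median -0.0568). Sgk1 itself ranged only 1.13-fold over the NeuN+ libraries, against 2.54-fold over the NeuN- libraries. Values of r in NeuN+ thus rest on little variation of Sgk1, and the contrast with NeuN- is limited by this. Genes of the list and genes at large share libraries, so these shares are not tests.

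Examples from that list, chosen after their values were seen, span several functions. Zbtb16, a transcriptional repressor, ranged from 99.2 to 427 CPM over the NeuN- libraries (r = 0.906, rho = 0.888, 0.872 without the 2 farthest libraries, 0.925 within groups). Nfkbia, the inhibitor of NF-kappa-B, ranged from 5.56 to 8.76 CPM (r = 0.957, rho = 0.937, 0.955 and 0.966 in the same order). Both the wide range of Zbtb16 and the narrow range of Nfkbia thus followed Sgk1. Within groups r was 0.962 for Klf15, 0.921 for Klf9 and 0.965 for Bcl6, which encode transcription factors, 0.959 for the lipid transporter Mfsd2a, 0.946 for Fam107a and 0.842 for the clock gene Per1. It was low for Rhob (-0.22), Angptl4 (-0.151), Bhlhe40 (0.0184), Irs2 (0.156) and Ets2 (0.234), so the list did not move as a whole.

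**Figure D5:**
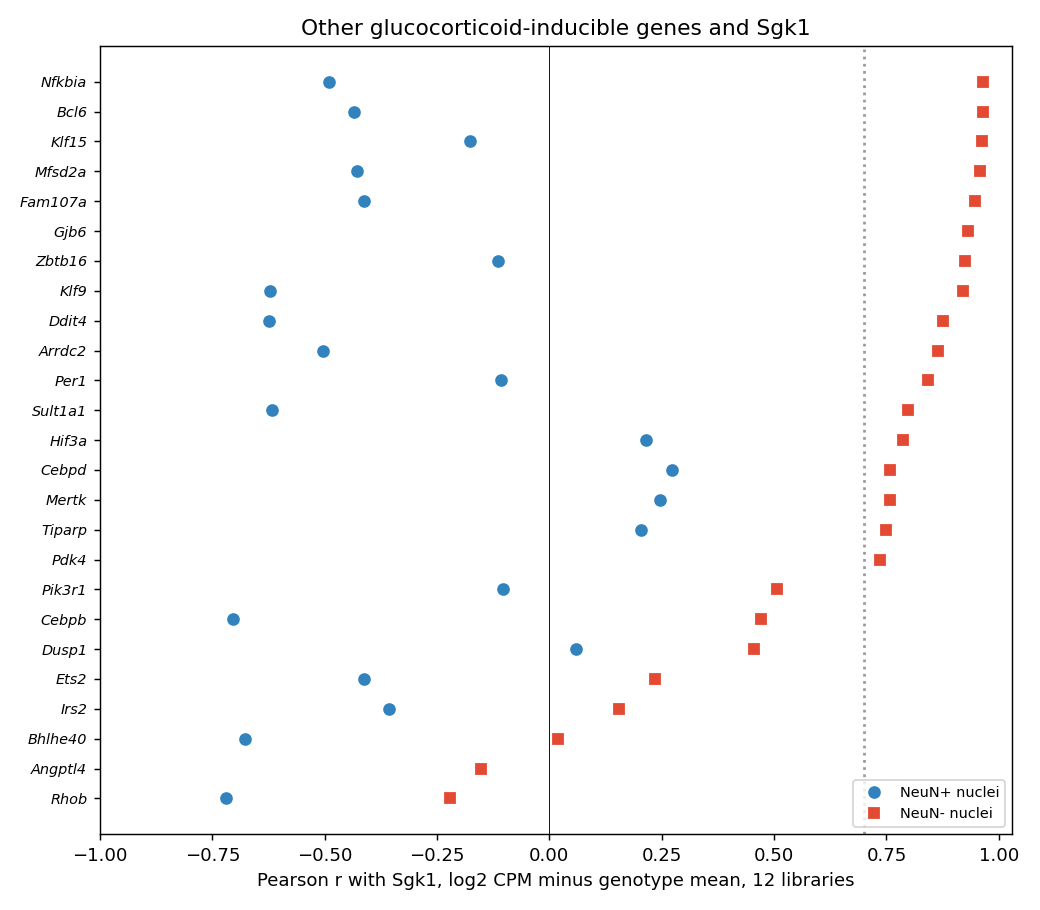
Pearson r with Sgk1 of each gene of the glucocorticoid-inducible list after removal of genotype means, over 12 NeuN- libraries and 12 NeuN+ libraries, with 1 point per gene and cell type. In NeuN- 17 of 25 points lie above the dotted line at 0.7, while in NeuN+, where Sgk1 ranged only 1.13-fold, 0 of 22 do.

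Other measures also moved with Sgk1 across the NeuN- libraries. Within groups r was 0.542 for the summed CPM of 6 astrocyte markers (0.383 without removal of genotype means, 0.12 without the 2 farthest libraries). In the same order it was 0.697 (0.587 and 0.338) for 3 endothelial markers and 0.625 (0.528 and 0.231) for 8 immediate early genes. For 18 receptor chaperones and coregulators r was 0.687 (0.637 and 0.417). It was 0.311 for the neuronal markers, 0.00785 for oligodendrocyte markers, -0.375 for microglial markers, 0.0505 for choroid plexus markers, 0.267 for clock genes and 0.155 for the library total. The summed astrocyte markers lay at 3040 to 3620 CPM in WT NeuN- libraries, and at 3100 to 4060, 3550 to 4470 and 3790 to 3950 CPM in those of Mutyh-/-, Ogg1-/- and DKO. The endothelial markers lay at 20.8 to 23.3, 16.7 to 22.8, 17.6 to 20.6 and 18 to 30.8 CPM in the same 4 groups. The part of cell composition, nuclear yield, handling and time of death in the spread of these genes was not tested. In bulk nuclei, fewer nuclei of a type and less RNA per nucleus cannot be told apart.

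The metallothioneins were lower in knockout NeuN+ nuclei without passing the test. Mt1 had 2.84, 3.07 and 2.61 CPM in WT NeuN+, 1.89, 2.00 and 1.86 in Mutyh-/-, 2.49, 1.89 and 1.61 in Ogg1-/- and 2.76, 2.37 and 2.19 in DKO. Every Mutyh-/- and Ogg1-/- library was below every WT library, while DKO overlapped WT. The log2 difference was -0.57 ± 0.15 in Mutyh-/- (adjusted p = 0.0818) and -0.52 ± 0.15 in Ogg1-/- (adjusted p = 0.111). In DKO it was -0.22 ± 0.14 (adjusted p = 0.536). DESeq2 gave -0.57 (adjusted p = 0.0226) and -0.52 (adjusted p = 0.0400) for the single knockouts, so the call depends on the tool. Over the alternatives tried the adjusted p ran from 0.0197 to 0.280 in Mutyh-/- and from 0.0349 to 0.377 in Ogg1-/-. Without Ogg1-/- NeuN+ replicate 1, the quasi-likelihood test gave -0.70 with an adjusted p of 0.0349 in Ogg1-/-.

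Mt2 had 0.802, 0.614 and 0.553 CPM in WT NeuN+, 0.457, 0.469 and 0.371 in Mutyh-/-, 0.480, 0.314 and 0.383 in Ogg1-/- and 0.549, 0.342 and 0.234 in DKO. On the scale of this cell type the 9 knockout libraries lay below the 3 WT libraries, but only by a thin margin. DKO replicate 1, at 0.5491 CPM from 39 reads, was just under WT replicate 3, at 0.5526 CPM from 36 reads. On the common scale over the 24 libraries they stood at 0.6003 and 0.5945 CPM and thus overlapped, so the separation depends on the scaling. In the order of these genotypes the log2 differences were -0.61 ± 0.28, -0.76 ± 0.28 and -0.82 ± 0.28, with adjusted p of 0.260, 0.251 and 0.216. These levels rest on 19 to 54 counted reads per library for Mt2 and 111 to 205 for Mt1, which limits the precision.

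Summed markers listed for other cells also differed between these NeuN+ libraries. The summed CPM of 4 pericyte and fibroblast markers lay at 14.3 to 15.1 in WT. This was above each knockout group (12.2 to 13.9 in Mutyh-/-, 11.8 to 12.8 in Ogg1-/-, 8.66 to 12.8 in DKO), on the scale of this cell type. Its most abundant gene was Dcn, with a median of 7.82 CPM over the NeuN+ libraries, against 2.74 for Pdgfrb and 1.56 for Rgs5. Between WT cell types Dcn was called higher in NeuN+ (log2 2.05), while the other markers of this list were called higher in NeuN-. The sum thus rests largely on a gene that was higher in NeuN+ nuclei. The summed CPM of 2 red blood cell markers lay at 3.07 to 3.41, 2.34 to 2.83, 2.84 to 4.15 and 1.75 to 2.21 in WT, Mutyh-/-, Ogg1-/- and DKO, and that of 6 astrocyte markers at 273 to 328, 267 to 276, 252 to 311 and 248 to 297 in the same order. Within groups, Mt1 and Mt2 had r = 0.861 and 0.673 with the red blood cell markers, 0.565 and 0.413 with the astrocyte markers, -0.285 and -0.642 with the pericyte and fibroblast markers and -0.681 and -0.6 with the library total, over 12 libraries that share depth and scaling. The part of these cells and of depth in the lower metallothionein levels was not tested.

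In NeuN- nuclei, where both genes are higher, Mt1 had 19.8, 20.2 and 20.1 CPM in WT, 16.7, 21.6 and 14.4 in Mutyh-/-, 19.8, 20.8 and 17.3 in Ogg1-/- and 22.6, 16.0 and 17.5 in DKO. Mt2 had 4.74, 6.07 and 4.97 CPM in WT, 3.36, 4.87 and 3.21 in Mutyh-/-, 4.96, 5.40 and 5.49 in Ogg1-/- and 6.90, 3.65 and 5.25 in DKO. The groups overlapped for both genes. The Mutyh-/- difference of Mt2 was -0.46 ± 0.21 (adjusted p = 0.358). The pair varied together across libraries (r = 0.802 and rho = 0.671 over 12 NeuN- libraries, 0.599 without the 2 farthest; r = 0.627 and rho = 0.741 over 12 NeuN+ libraries, 0.611 without the 2 farthest).

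Plin4 in Mutyh-/- NeuN- had the largest estimated log2 difference from WT among the 9 members. In NeuN- nuclei it had 23.5, 25.3 and 51.5 CPM in WT, 103, 89.9 and 75.0 in Mutyh-/-, 62.2, 53.2 and 23.7 in Ogg1-/- and 59.97, 28.2 and 49.6 in DKO. The Mutyh-/- libraries all lay above the WT libraries, while Ogg1-/- and DKO overlapped WT. The Mutyh-/- difference was 2.67-fold (log2 1.42 ± 0.38, unadjusted p = 0.00270, adjusted p = 0.173), and DESeq2 gave 1.42 with an adjusted p of 0.0479. Over the alternatives tried the adjusted p ran from 0.0246 to 0.545. For Ogg1-/- the difference was 0.47 ± 0.37 (adjusted p = 0.685) and for DKO 0.46 ± 0.37 (adjusted p = 0.641), both within the spread. Leaving out single libraries moved the Mutyh-/- value between 1.21 (without WT NeuN- replicate 1) and 1.87 (without WT NeuN- replicate 3).

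In NeuN+ nuclei, at a lower level, Plin4 had 8.44, 8.78 and 9.81 CPM in WT, 9.80, 11.4 and 10.3 in Mutyh-/-, 11.6, 11.4 and 11.3 in Ogg1-/- and 9.996, 11.1 and 11.7 in DKO. Every library of Ogg1-/- and of DKO was above every WT library, and the lowest Mutyh-/- library fell just inside the WT range. The log2 difference of Mutyh-/- was 0.22 ± 0.08 (adjusted p = 0.164), that of Ogg1-/- 0.35 ± 0.08 (adjusted p = 0.0511) and that of DKO 0.28 ± 0.08 (adjusted p = 0.143), each under the limit of 0.5. DESeq2 gave adjusted p of 0.00557 for Ogg1-/- and 0.0479 for DKO at log2 differences of 0.35 and 0.28, and over the alternatives the adjusted p reached 0.229 and 0.436. Across the 12 NeuN+ libraries Plin4 went against Mt2 (r = -0.799, rho = -0.713, -0.669 without the 2 farthest libraries, -0.583 within groups). In NeuN- libraries r of Plin4 within groups was 0.567 with the astrocyte markers, 0.491 with the library total and -0.318 with the choroid plexus markers, which lay at 37.3 to 67.3 CPM in WT and 20 to 24.7 CPM in Mutyh-/-. Their part in the difference was not tested.

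Comparisons between knockouts called 0 of 9 members each by edgeR's quasi-likelihood test, and DESeq2 and the likelihood ratio test called 0 as well. In NeuN+ the background was 0.216% for DKO against Ogg1-/-, 0.139% for DKO against Mutyh-/- and 0.485% for Ogg1-/- against Mutyh-/-, and 0, 1 and 0 members had an unadjusted p under 0.05, against 4.26%, 6.86% and 12.7% of all genes. In NeuN- the background was 0.132%, 0.122% and 0.521% in the same order, with 0, 2 and 4 members at that p, against 4.34%, 11% and 11.5% of all genes. The 4 were Nr3c2, higher in Ogg1-/- than in Mutyh-/- by 0.19 ± 0.05 on the log2 scale (adjusted p = 0.126), Errfi1 (-0.30 ± 0.09, adjusted p = 0.196), Mt2 (0.47 ± 0.21, adjusted p = 0.422) and Plin4 (-0.94 ± 0.37, adjusted p = 0.348). Plin4 was also lower in DKO than in Mutyh-/- in NeuN- (-0.96 ± 0.37, adjusted p = 0.394), which did not pass either. For Nr3c2 in Ogg1-/- against Mutyh-/- NeuN-, DESeq2 gave 0.19 with an adjusted p of 0.0176, under the limit of 0.5 on the log2 difference.

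A departure from additivity, the DKO effect minus both single-knockout effects, was called for 0 of 9 members in NeuN+ (0.159% of all genes) and for 0 of 9 in NeuN- (0.122%) by the quasi-likelihood test. At an unadjusted p under 0.05 there were 2 members in NeuN+ (7.95% of all genes) and 1 in NeuN- (8%). DESeq2 called 0 in both, and the likelihood ratio test called 1 in NeuN+ (Mt1) and 0 in NeuN-. For Mt1 in NeuN+ it was 0.87 ± 0.21 on the log2 scale (adjusted p = 0.275), and without Ogg1-/- NeuN+ replicate 1 it was 1.05 with an adjusted p of 0.0437, in a range from 0.0339 to 0.742 over the alternatives. For Plin4 in NeuN- it was -1.43 ± 0.53 (adjusted p = 0.562).

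The genotype effect differed between cell types for 0 of 9 members in Mutyh-/- (0.0209% of all genes), 0 of 9 in Ogg1-/- (0.0537%) and 0 of 9 in DKO (0.0567%) by the quasi-likelihood test of the interaction. At an unadjusted p under 0.05 there were 1, 2 and 1 members, against 8.58%, 7.09% and 9.4% of all genes, and DESeq2 and the likelihood ratio test called 0. The Mutyh-/- effect on Plin4 was smaller in NeuN+ than in NeuN- by a log2 difference of -1.21 ± 0.42 (adjusted p = 0.411). The effect on Mt1 of Ogg1-/- was lower in NeuN+ by -0.47 (adjusted p = 0.688) and that of DKO on Mt2 by -0.83 (adjusted p = 0.497). The different calls by DESeq2 in NeuN+ and NeuN- nuclei are thus not shown to be a difference between the cell types.

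The other genes of the pathway were taken from lists drawn up for the receptors' partners. Of 18 receptor chaperones and coregulators, 2 were called lower in Ogg1-/- NeuN+ and 1 in DKO NeuN+, where 0.574% and 0.302% of all genes were called. In Mutyh-/- NeuN+ 0 were called (0.428% of all genes), and 3 had an unadjusted p under 0.05 (18.7% of all genes). Hsp90aa1, the inducible Hsp90 that holds the unbound receptor, fell from 180.6 ± 15.9 CPM (SD, n = 3) in WT NeuN+ to 120 ± 19 in Ogg1-/- (log2 -0.59 ± 0.11 SE, adjusted p = 0.0229) and 121 ± 4 in DKO (-0.58 ± 0.11, adjusted p = 0.0394). Hsp90ab1, its constitutive counterpart, fell from 235 ± 26 to 158 ± 21 CPM in Ogg1-/- (-0.57 ± 0.12, adjusted p = 0.0325). In NeuN- nuclei 0 of 18 were called in each genotype (0.273%, 0.229% and 0.116% of all genes in Mutyh-/-, Ogg1-/- and DKO). At an unadjusted p under 0.05 there were 8, 2 and 0 in the same order, against 13.7%, 11.8% and 12.4% of all genes. In Mutyh-/- NeuN-, 17 of 18 estimates were above 0 (median log2 difference 0.12, all genes -0.01). These estimates come from the same libraries, so their signs are not independent, and the share of all genes above 0 is not given here.

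The 28 other glucocorticoid-inducible genes had 0 calls in each comparison with WT (26 were tested in NeuN+, 28 in NeuN-). At an unadjusted p under 0.05 there were 3, 5 and 3 in NeuN+ and 5, 4 and 4 in NeuN- for Mutyh-/-, Ogg1-/- and DKO. The shares of all genes at that p were 18.7%, 12.3% and 13.5% in NeuN+ and 13.7%, 11.8% and 12.4% in NeuN-. These counts do not set the list apart. Their median log2 difference in NeuN- was 0.19, 0.12 and 0.11, where the median of all genes was within 0.01 of 0, and 20, 18 and 21 of 28 estimates were above 0. Genes of the list share libraries and many moved together, so these signs are not independent, and the share of all genes above 0 is not given here. Zbtb16 in Mutyh-/- NeuN- was at 0.78 ± 0.42 (adjusted p = 0.439), a wide error like that of Sgk1. Between the WT cell types, where 21.3% of all genes were called higher in NeuN+ and 21.6% higher in NeuN-, 2 genes of this list were called higher in NeuN+, Zbtb16 among them (1.76 ± 0.33, adjusted p = 5.21e-05), and 15 higher in NeuN-, among them the hypoxia-inducible factor gene Hif3a (-3.36 ± 0.35, adjusted p = 1.08e-08), Fam107a (-2.80 ± 0.22, adjusted p = 8.80e-11) and Klf15 (-2.26 ± 0.19, adjusted p = 3.36e-10).

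Of 6 genes of glucocorticoid metabolism and efflux, 0 were called against WT. Hsd11b1, which regenerates active hormone from its inert form, was at 16.1 ± 0.9 CPM in WT NeuN- and 21.2 ± 0.3 in DKO NeuN- (log2 0.40 ± 0.07, adjusted p = 0.0461), which passed the p threshold but not the limit of 0.5. In WT it was higher in NeuN- than in NeuN+ nuclei (log2 -1.71 ± 0.09, adjusted p = 1.05e-13). All 4 genes of the corticotropin-releasing hormone system were called higher in WT NeuN+ nuclei (21.3% of all genes were), and 0 of 4 were called in a knockout, where Crhr2 in Mutyh-/- NeuN+ came closest (-0.48, adjusted p = 0.0821). Of 17 paralogs and partners of the members 0 were called. Among them Slc30a1, a zinc exporter that like the metallothioneins answers to zinc, was at -0.40, -0.37 and -0.35 in Mutyh-/-, Ogg1-/- and DKO NeuN+ (adjusted p = 0.0752, 0.0949 and 0.139). Egfr, the receptor that Errfi1 restrains, was at -0.38 in Mutyh-/- NeuN+ (adjusted p = 0.0427), under the limit of 0.5.

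Of 8 immediate early genes 0 were called in a knockout. Of 10 circadian clock genes, 1 was called: Per3 rose from 72.1 ± 6.9 to 108 ± 16 CPM in Mutyh-/- NeuN+ (log2 0.58 ± 0.10, adjusted p = 0.0129). In that comparison 0.428% of all genes were called. Counts of 0 in these lists are from edgeR's quasi-likelihood test, and DESeq2 was not summed over the lists.

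The tested gene with the highest Pearson r to each member over the 12 libraries of a cell type, among 21208 genes in NeuN- and 20014 in NeuN+ with a mean of at least 1 CPM, is given as a description. In NeuN- it was Plekhf1 for Sgk1 (0.974), Gm49839 for Fkbp5 (0.971), 9330159F19Rik for Tsc22d3 (0.982), Sec63 for Errfi1 (0.923), Lin52 for Plin4 (0.936), Mpc1 for Nr3c1 (0.949), Ric3 for Nr3c2 (0.95), Ap3m1 for Mt1 (0.835) and Gm45774 for Mt2 (0.998). The last pair overlap on opposite strands, so their counts may hold the same reads. In NeuN+ it was Cttnbp2 for Sgk1 (0.939), Gm43605 for Fkbp5 (0.893), Wbp4 for Tsc22d3 (0.899), Per1 for Errfi1 (0.887), Tpst1 for Plin4 (0.946), Stat6 for Nr3c1 (0.826), Amph for Nr3c2 (0.929), Dctn5 for Mt1 (0.883) and Rlim for Mt2 (0.952). For each member a different gene came first in each cell type.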

How the data were processed

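Nuclear RNA of sorted NeuN+ and NeuN- hippocampal nuclei was sequenced in 24 libraries (stranded total RNA kit). The authors deposited 2 tables of raw counts per gene, 1 for each cell type. Per the submitters' processing notes and the study's methods, reads were checked with FastQC 0.11.9, aligned to GRCm38/mm10 with HISAT2 2.1.0, handled with SAMtools 1.10 and counted with featureCounts in R 4.3.2. The feature type, strand setting and treatment of overlapping genes are not given in the sources used here.

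Groups followed the labels. For each cell type, all 12 libraries were fitted together (edgeR 4.0.16 in R 4.3.3: filterByExpr by group, TMM, glmQLFit, glmQLFTest, Benjamini-Hochberg over all genes tested, which were 30132 in NeuN+ and 31863 in NeuN-). WT cell types and interactions came from 1 fit of 24 libraries (33523 genes). Calls needed an adjusted p below 0.05, with a log2 difference beyond 0.5 either way between genotypes or beyond 1 between cell types, and additivity and interaction calls the adjusted p alone. Errors are standard errors of the log2 difference unless given as SD. Correlations used log2 CPM with a prior count of 2. FPKM used union exon lengths of the annotation provided for GRCm38. Promoter windows came from RefSeq on GRCm38.p6. The tests were tried on simulated data. Alternatives were DESeq2 1.42.0, edgeR's likelihood ratio test, other scalings and filters, the compared groups alone, a replicate block and leaving out each library.

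Totals of 56563586 to 96192142 reads per library gave 19 to 54 reads per library for Mt2 in NeuN+, the thinnest member, and over 100 for every other member. Between any 2 libraries of a group at least 68.9% of genes differed in count, so none was a copy of another.

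Members, lists and their rules were chosen with earlier results of these data known. Named were the 9 members, Ogg1 and Mutyh, list genes called against WT or else up to 4 examples by smallest p or largest difference between WT cell types, and for each member its most alike gene. Further list genes set beside Sgk1 were chosen after their values were seen.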

Additional observations from a re-analysis of the deposited data

How the results depend on the processing

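Of 702 alternative estimates of the members' log2 differences from WT, 693 stayed on the same side of the threshold and 9 passed it where the reported value had not. The reported comparisons with WT called 0 members, so no call could be lost. A turn of sign was counted only for called values, and 0 of those 9 turned. The count of members called in Mutyh-/- NeuN+ was 1 (Mt1) in place of 0 without the low-count filter, with DESeq2 (adjusted p = 0.0226), with the likelihood ratio test (adjusted p = 0.0197) and with only the compared groups in the fit. In Ogg1-/- NeuN+ it was 1 (Mt1) with DESeq2 and with the likelihood ratio test (adjusted p = 0.0376), and 0 to 1 over the fits leaving out a library, where only the fit without Ogg1-/- NeuN+ replicate 1 gave 1. For additivity in NeuN+ it was 1 (Mt1) with the likelihood ratio test (adjusted p = 0.0339) and 0 to 1 when a library was left out, again without Ogg1-/- NeuN+ replicate 1. In Mutyh-/- NeuN- it was 1 (Plin4) with DESeq2 and with the likelihood ratio test (adjusted p = 0.0246). Between WT cell types 8 members passed with no limit on the log2 difference, in place of 5. The cause of these changes was not tested, except that the last follows from dropping the limit. DESeq2 gave no adjusted p for Mt2 in the NeuN+ comparisons with WT. Over all genes, DESeq2 called 388, 238 and 173 genes in Mutyh-/-, Ogg1-/- and DKO NeuN+, where the quasi-likelihood test called 129, 173 and 91, and 231, 179 and 178 in NeuN-, where it called 87, 73 and 37, so the background shares depend on the tool as well. For the interactions DESeq2 called 81, 65 and 223 genes against 7, 18 and 19.

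Replicate numbers are shared between groups, but the labels tie them to no batch. Deviations from the group mean correlated between the NeuN+ and the NeuN- library that share a genotype and a number at 0.0117 to 0.328 (mean 0.169, 8 of 12 pairs over 0.1), against a mean of -0.0835 for different numbers (1 of 24 over 0.1). Deviations within a group sum to 0, so the values for different numbers are tied to the others and are no independent baseline. In DKO 3 of 3 pairs were over 0.1. The criterion of every pair over 0.1 was not met, and the labels do not say that a number marks a shared pool, so the fits carry no block. Whether libraries with the same number share a source was not tested. With a replicate block, 0 members were called in every genotype and interaction comparison and 5 between WT cell types, while the interactions over all genes had 31, 26 and 53 calls in Mutyh-/-, Ogg1-/- and DKO against 7, 18 and 19. Depth limits Mt2 and Mt1 in NeuN+ most.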
